A study of Mus musculus with 4 samples.

Results

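The genes described here encode the proteins of the cytosolic ribosome in mouse regulatory T cells. They were chosen by symbol: Rpl or Rps followed by a number (with an optional a, x, y or l), or Rpsa, Rplp0, Rplp1 and Rplp2, with the S6 kinase genes left out. Of 23284 symbols in the count files, 84 had such a name, and 72 of them also had 20 or more reads in each library. The 72 members comprise 43 genes of the large subunit and 29 of the small subunit. Each ribosome is built from ribosomal RNA and 1 set of these proteins, and its large subunit joins amino acids while its small subunit reads the message. The messages of these genes are among the most abundant of a growing cell, and many start with a tract of pyrimidines through which growth signals control their translation. T cells raise ribosome production when they are activated.

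Regulatory T cells (Treg cells, which restrain immune responses) had been sorted from the spleen or the epididymal fat (eWAT, white adipose tissue of the abdomen) of C57BL/6 mice 12 to 13 months old. Each mouse was either WT (wild type) or PPARg-2KR, called 2KR here, a mutant form of the nuclear receptor PPARg. There was 1 library for each of the 4 groups, and values below are given in the order WT spleen, 2KR spleen, then WT eWAT, 2KR eWAT. The number of animals behind a library, the sorting gate and how the mutant allele was made are not given in the labels.

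The libraries held 13250590, 15993889, 11186660 and 8315569 reads. The Treg markers Foxp3, Il2ra, Ctla4 and Ikzf2 had at least 237 CPM (reads scaled to library size and by the trimmed mean of M-values, TMM) in every library. Markers of other cells were higher in the eWAT libraries. A list of 8 dendritic cell and MHC class II genes summed to 1015, 682, 8924 and 16153 CPM, with 8 of 8 higher in eWAT, and 9 macrophage and monocyte genes summed to 130, 88.5, 1331 and 1660 CPM, with 9 of 9 higher. Of 8 fibroblast and mesothelium genes 8 were higher (sums of 7.51, 4.13, 545 and 230 CPM), of 6 endothelial genes 5 (174, 193, 276 and 345 CPM) and of 6 B cell genes 3 (94.1, 80.2, 85.5 and 150 CPM), with Pecam1 and Cd79b lower. The endothelial marker Cav1 had 0 reads in both spleen libraries. Adipocyte genes (2 of 2 tested higher) summed to 2.83, 1.44, 13.1 and 20 CPM, and mast cell genes (2 of 2) to 8.56, 6.69, 12.4 and 79.0 CPM. The dendritic cell and macrophage sums move with tissue, as the ribosomal protein genes do in the opposite direction. Both sums are higher in 2KR than in WT within eWAT and lower in 2KR within spleen. Their part in the results below was not tested, and in bulk libraries fewer cells of a type and less RNA per cell cannot be told apart.

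Many members have processed pseudogenes, intron-free copies of their messages scattered over the genome, from which a read of the gene itself can be hard to tell apart. Coding sequences of GENCODE M21 transcripts were therefore compared with the annotated pseudogenes (GRCm38). For 15 of 72 members a pseudogene carried the entire coding sequence without a base changed, for 30 the closest full-length copy had 1 to 4 differences, for 16 it had 5 or more, and 11 had no full-length ungapped copy. The first 60 coding bases of Rps16 (chr7:28350652-28353155, plus strand) and Rpl5 (chr5:107900502-107909005, plus strand) are shown because these members have an identical copy. Rpl36 (chr17:56613416-56614243, plus strand) is shown because its copy is nearly identical. Capitals mark the bases at which gene and copy differ, and the copies lie at chr5:129128077-129128517 (Rps16-ps2, minus strand), chr7:114705217-114706235 (Gm15500, minus strand) and chr6:108140120-108140509 (Rpl36-ps12, minus strand).
Rps16: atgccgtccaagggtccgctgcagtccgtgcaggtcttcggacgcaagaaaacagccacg
Rps16-ps2: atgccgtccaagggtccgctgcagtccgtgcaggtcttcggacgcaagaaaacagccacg
Rpl5: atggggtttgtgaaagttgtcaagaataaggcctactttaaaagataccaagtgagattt
Gm15500: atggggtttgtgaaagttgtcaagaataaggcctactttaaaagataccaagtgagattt
Rpl36: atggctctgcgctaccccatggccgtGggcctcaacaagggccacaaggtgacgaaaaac
Rpl36-ps12: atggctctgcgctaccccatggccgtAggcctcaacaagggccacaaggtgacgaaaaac

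A paralog is a separate functional gene and is easier to tell apart. Rps27 (chr3:90212522-90213651, minus strand) and Rps27l (chr9:66946086-66949516, plus strand) have coding sequences of the same 252 bases in length, which differ at 60 positions. Their first 60 bases are shown, with the 18 that differ in capitals. They were chosen because, by the deposited length-scaled levels described below, Rps27 was called lower in eWAT and Rps27l was not. By read counts neither passed the test, and the difference between them was not tested.
Rps27: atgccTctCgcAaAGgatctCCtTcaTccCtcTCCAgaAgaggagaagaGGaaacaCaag
Rps27l: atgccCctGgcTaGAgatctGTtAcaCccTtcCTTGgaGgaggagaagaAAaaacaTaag

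The RefSeq table of start sites (GRCm38.p6) held 54 of the 72 members, and the first start listed for each was searched for the pyrimidine tract. A run of 6 or more C or T on the gene's own strand lay within 15 bases of the annotated start in 31 of 54 members (57.4%), against 29.1% of all 27025 genes in the table and 33.3% of 69 mitochondrial ribosomal protein genes. Such a run was found in 19 of 33 large and 12 of 21 small subunit genes. Runs that did not reach the annotated start were counted as well, so these are not shares of messages that start with a tract. The windows shown are those of the 5 members with the lowest eWAT levels relative to spleen for which the table had an entry, and of the paralogs Rps27l and Rpl7l1. Capitals mark runs of 6 or more pyrimidines, and the annotated start is the 16th base. Rps19 and Rpl7l1 had no such run in the window, while Rps27l had one upstream of its start.
Rps15a (chr7:118116133-118116162, minus): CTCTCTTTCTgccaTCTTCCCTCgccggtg
Rps18 (chr17:33955651-33955680, minus): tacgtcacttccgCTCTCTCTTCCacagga
Rps26 (chr10:128626492-128626521, minus): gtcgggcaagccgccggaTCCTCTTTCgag
Rpl15 (chr14:18270972-18271001, minus): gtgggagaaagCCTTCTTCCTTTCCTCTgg
Rps19 (chr7:24884577-24884606, plus): tccgaaatctcgcgagactcgacgcccgac
Rps27l (chr9:66946071-66946100, plus): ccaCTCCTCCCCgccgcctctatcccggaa
Rpl7l1 (chr17:46782642-46782671, minus): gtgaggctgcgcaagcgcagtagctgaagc

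Ribosomal protein messages took a smaller part of the eWAT libraries than of the spleen libraries. The 72 members held 1.03, 0.860, 0.509 and 0.468% of all reads. In FPKM, the length-scaled unit that the authors deposited from Cufflinks, all 84 symbols held 5.41, 4.75, 2.73 and 2.63% of the summed value. By either measure both eWAT libraries lay below both spleen libraries, and within each tissue the 2KR library lay below the WT library.

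The level per length varied widely among members. In WT spleen the FPKM ran from 13.7 for Rps12 to 2385 for Rpl41, the smallest protein of the ribosome, with a median of 304. Rps12 had 65 reads there and has an identical pseudogene copy. How copies affect the FPKM values was not tested. The median over members was 304, 224, 147 and 137 FPKM in the 4 libraries. Rps15a was listed at only 22.1, 18.1, 8.36 and 7.59 FPKM although it had 1400, 1389, 444 and 298 reads. The transcript the authors' table lists for Rps15a is 5134 bases long, whereas Rps18 is listed with 524, so its length-scaled level rests on that annotation. Read counts were uneven as well: the 5 members with most reads, among them Rps3, Rpl4 and Rplp0, held 39.7, 39.9, 40.3 and 39.2% of the members' reads.

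**Figure D1:**
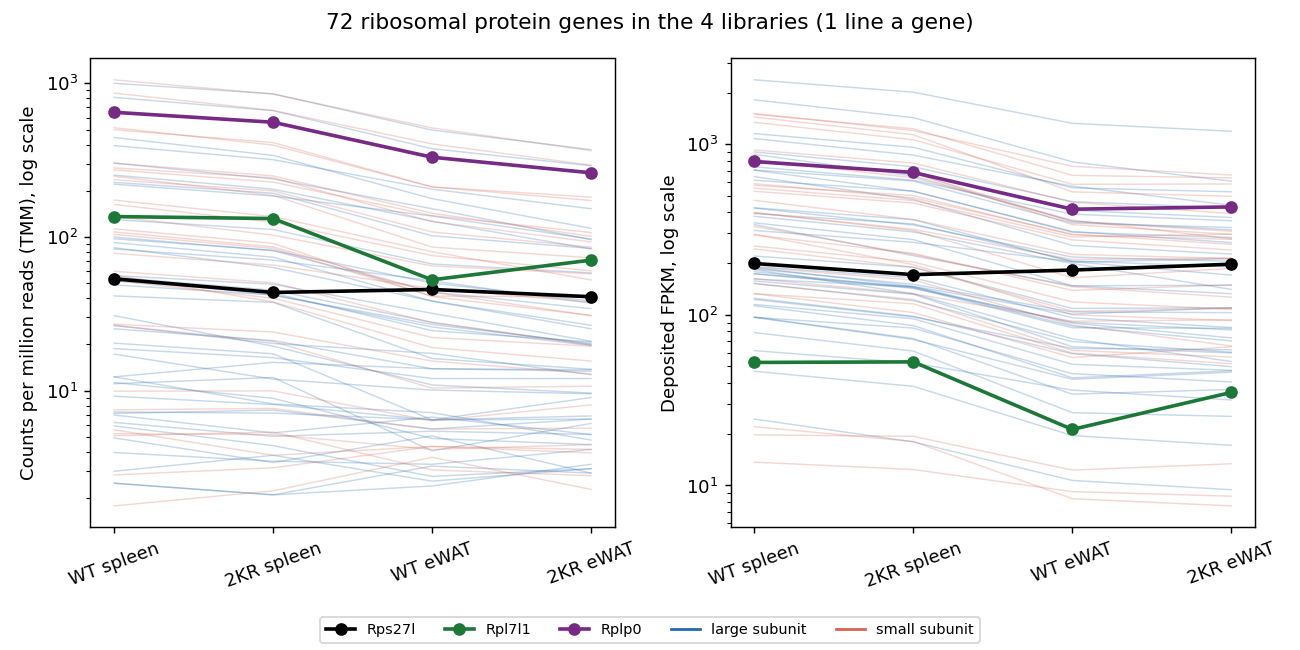
Level of each of the 72 members (1 line a gene, blue for the large and red for the small subunit) in the 4 libraries, as CPM on the left and as deposited FPKM on the right, both on a log scale. Rplp0 falls from 649 CPM in WT spleen to 262 CPM in 2KR eWAT, Rps27l stays between 40.9 and 53.5 CPM, and Rpl7l1 is higher in 2KR eWAT (70.8 CPM) than in WT eWAT (52.7 CPM).

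The 2 deposited measures were not interchangeable. A level computed from the counts (reads divided by transcript length and library size) was divided by the deposited FPKM, each averaged over the 4 libraries. For 4677 other genes at 20 FPKM or more the median of this ratio was 0.929 (quartiles 0.855 and 0.968). For the 72 members it was 0.274 (quartiles 0.114 and 0.514), and 26 members lay under 0.2. Short transcripts have lower ratios: 199 other genes under 800 bases with no pseudogene match had a median of 0.697, against 0.290 for the 43 members of that length.

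The ratio was lower where the closest full-length copy had fewer differences. Its median was 0.714 (range 0.337 to 0.916) in the 11 members with no full-length copy, 0.495 where the closest copy had 5 or more differences, 0.223 with 1 to 4, and 0.118 in the 15 with an identical copy. Those without a full-length ungapped copy include Rpl4, Rpl8, Rpl22, Rplp2 and Rps3. Partial matches occur among them: pseudogenes matched 57.4% of the 100-base windows of Rpl4 and 1.7% of those of Rpl8. Among other genes, 120 for which over 50% of the 100-base windows matched a pseudogene with at most 4 mismatches had a median ratio of 0.486, and 3624 with no such window had 0.940. By the same windows the members separated less. The median was 0.235 in 42 members with over 50% matched, 0.270 in 25 with 10 to 50% and 0.714 in 5 with 10% or less. Rpl21, with 39 full-length copies and 2 differences in the closest, had a ratio of 0.708. Whether reads with several matches were dropped in counting was not tested.

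**Figure D2:**
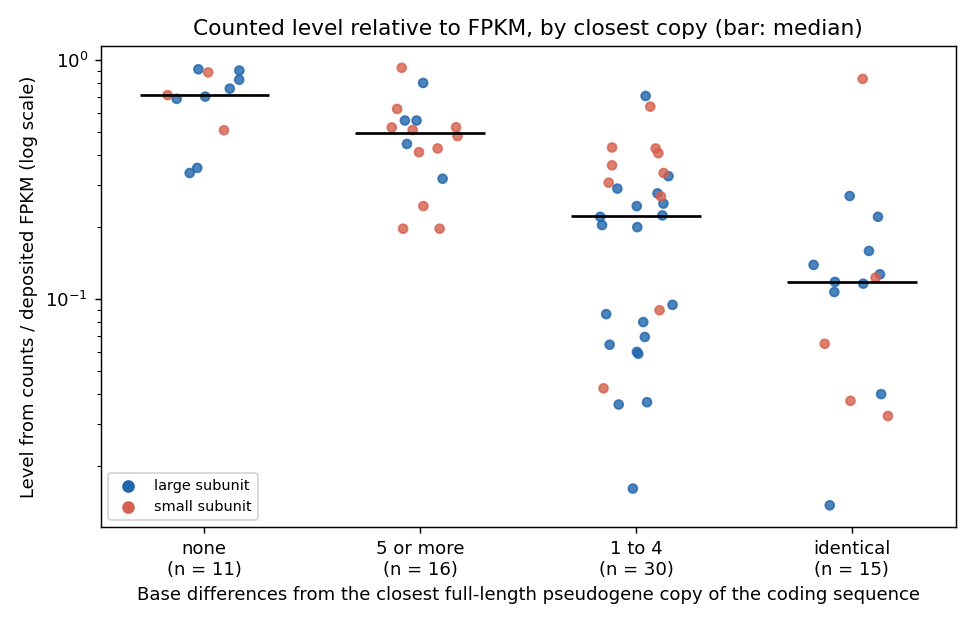
Ratio of the level from counts to the deposited FPKM (log scale) for the 72 members, grouped by the base differences of the closest full-length pseudogene copy of the coding sequence; bars are medians and colours give the subunit. The medians step down from 0.714 with no full-length ungapped copy to 0.118 with an identical copy. Rps12 (0.835) stands above the others with an identical copy.

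Individual members show the size of the gap. Rpl5, which with Rpl11 and 5S ribosomal RNA forms a particle that binds MDM2, had 49, 53, 36 and 40 reads but 186, 151, 104 and 103 FPKM, a ratio of 0.0137. Rps16 had 22, 34, 40 and 22 reads and 190, 160, 87.2 and 65.7 FPKM, a ratio of 0.0324. Rps3, a protein at the entry of the messenger channel and without a full-length copy, had 13081, 12996, 5554 and 3515 reads and 587, 485, 297 and 259 FPKM, a ratio of 0.889. The counts of Rpl5 and Rps16 show no drop in eWAT that stands out of their few reads, while their FPKM values are lower in both eWAT libraries, as they are for Rps3.

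The threshold of 20 reads falls among such genes. Just inside it were Rps16, Rpl11 (31, 32, 26 and 32 reads) and Rps27 (63, 82, 33 and 27 reads). Just outside were Rps23 (60, 78, 20 and 19 reads), Rps10 (28, 34, 18 and 25 reads) and Rps29 (24, 30, 27 and 14 reads). By FPKM Rps23 (398, 327, 187 and 155) and Rps10 (313, 257, 152 and 127) exceeded many members. Others outside it were low by both measures, such as Rpl10l and Rpl39l with mean FPKM of 0.462 and 0.620. Rpl26 had 0, 0, 0 and 1 reads and a mean FPKM of 5.68e-05. The other 9 symbols outside it are Rpl10l, Rpl23a, Rpl26, Rpl28, Rpl30, Rpl36a, Rpl39l, Rpl3l and Rps4y2.

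The first comparison asks how Treg cells of fat and spleen differ, with 2 eWAT against 2 spleen libraries. By edgeR's quasi-likelihood test, 48 of 72 members were lower in eWAT at an adjusted p under 0.05 and none was higher, and the remaining 24 did not pass. Over all 16488 genes tested 23.2% were lower and 33.7% higher. The members' median log2 fold change was -1.02, against 0.11 for all genes. Genotype was not a term, so its effect adds to the spread between the libraries of a tissue.

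Members with many reads account for nearly all of the calls. With a mean of 200 or more reads, 45 of 47 members fell, against 42.5% of the 8140 tested genes with that many reads. Their median log2 change was -1.12, against -0.41 for those genes. The exceptions were Rps27l (-0.16 ± 0.20, SE, adjusted p = 0.505) and Rpl18 (-0.63 ± 0.27, SE, adjusted p = 0.0633). Among the 25 members with fewer reads only Rpl12, Rpl35a and Rpl37 fell, and their median was -0.26.

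In FPKM the low-read members resembled the others. Limma on log2(FPKM + 1) gave 65 of 72 members lower in eWAT and none higher, against 9.43% of 22034 genes lower. That background includes genes near 0 FPKM. With genes of 1 FPKM or more in at least 1 library, 70 of 72 members were lower, against 2988 of 15084 genes. Over the 22034 genes limma called 22 of the 25 low-read members, whose median log2 change was -1.01. It called 43 of the 47 others, with a median of -0.95. The 7 members it did not call were Rpl10, Rpl14, Rpl38, Rpl41, Rpl7l1, Rps12 and Rps27l. The standard deviation over members was 0.51 for the log2 change in counts and 0.22 in FPKM. In FPKM, both eWAT libraries lay below both spleen libraries for 71 of 72 members, with Rps27l as the exception. This was so for 53.8% of the 8140 genes with a mean of 200 or more reads.

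Calls were fewer in the classes with closer copies, which also have fewer reads: the median of mean reads was 3357 with no full-length copy, 1659 with 5 or more differences, 323 with 1 to 4 and 100.2 with an identical copy. Among members with a mean of 200 or more reads, 11 of 11, 15 of 16, 16 of 17 and 3 of 3 fell in these classes. Over all members of each class, all 11 members with no full-length copy fell (median log2 change -1.12), as did 15 of 16 whose closest copy had 5 or more differences, where Rps27l did not. With 1 to 4 differences 18 of 30 fell, and of the 15 members with an identical copy 4 fell (Rpl12, Rpl13, Rpl15 and Rps6; median of the 15, -0.38). In FPKM the median changes of these classes, in the same order, were -0.94, -0.96, -1.0 and -0.96. Across the 72 genes of these same 4 libraries, Spearman's rho between the ratio of counts to FPKM and the gap between the log2 changes in counts and FPKM was -0.71, a description with no test since genes share the libraries. The cause of the gap was not tested.

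**Figure D3:**
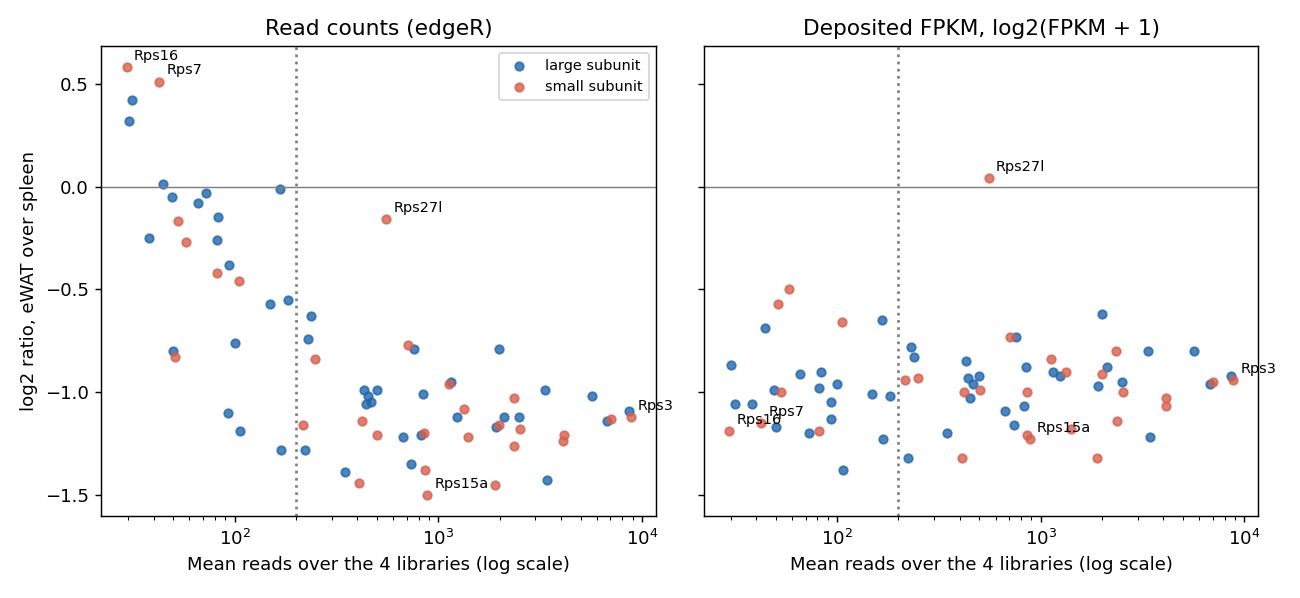
log2 ratio of eWAT over spleen for the 72 members against mean reads (log scale), from read counts on the left and from deposited FPKM on the right; the dotted line marks 200 reads and colours give the subunit. In counts the members under 200 reads have a median of -0.26, in FPKM -1.01, and Rps27l lies near 0 in both.

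The members with the lowest log2 fold changes were Rps15a, Rps18, Rps26, Rpl32, Rpl15 and Rps19, of which 4 belong to the small subunit. Rps15a, a small subunit protein, had 113, 91.1, 41.0 and 30.9 CPM, a log2 change of -1.50 ± 0.21 (SE, edgeR adjusted p = 9.49e-05). Rps18, from the head of the small subunit, had 249, 187, 86.1 and 73.3 CPM, a change of -1.45 ± 0.21 (SE, edgeR adjusted p = 0.000135). For both, each eWAT library was under the lower of the spleen libraries, without overlap. Rps26 had 56.5, 37.8, 19.1 and 15.6 CPM (-1.44 ± 0.24, SE). Rps19, which is mutated in Diamond-Blackfan anaemia, had 108, 86.3, 43.8 and 30.8 CPM (-1.38 ± 0.22, SE). In the large subunit Rpl32 had 445, 340, 178 and 114 CPM (-1.43 ± 0.25, SE). All of these passed edgeR's test with an adjusted p of at most 0.000537 and showed the same order of libraries, with WT spleen highest and 2KR eWAT lowest.

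The stalk proteins of the large subunit, which recruit the elongation factors, also fell. Rplp0, the base of the stalk, had 649, 559, 331 and 262 CPM, a log2 change of -1.02 ± 0.23 (SE, edgeR adjusted p = 0.00286). Rplp1, which binds it as a dimer with Rplp2, had 303, 239, 153 and 96.1 CPM, a change of -1.12 ± 0.24 (SE, edgeR adjusted p = 0.00205). Rplp2 had 30.8, 19.5, 10.9 and 9.65 CPM, a change of -1.28 ± 0.29 (SE, edgeR adjusted p = 0.00281). Differences between these changes were not tested. The levels of the partners Rplp1 and Rplp2, per length, differed: 1079, 863, 567 and 439 FPKM for Rplp1 against 184, 133, 72.3 and 53.3 FPKM for Rplp2.

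The other anchor genes chosen for description, Rpl3, Rps3 and Rpsa, were also lower in eWAT. Rpl3, whose protein lies near the peptidyl transferase centre, had 130, 112, 66.8 and 58.5 CPM (-0.95 ± 0.19, SE, edgeR adjusted p = 0.00135). Rps3 had 1056, 852, 513 and 365 CPM (-1.12 ± 0.26, SE, edgeR adjusted p = 0.00319). Rpsa, a small subunit protein also described as a laminin receptor, had 274, 228, 138 and 107 CPM (-1.03 ± 0.21, SE, edgeR adjusted p = 0.00156). In none of these did a spleen library overlap an eWAT library.

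The members with the highest log2 changes in counts were Rps16, Rps7, Rpl34, Rpl11, Rpl5 and Rpl10, none of which passed the test. Rps16 had 1.78, 2.23, 3.69 and 2.28 CPM, a log2 change of 0.58 ± 0.63 (SE, edgeR adjusted p = 0.448). Rps7 had 2.83, 3.15, 4.34 and 4.15 CPM, a change of 0.51 ± 0.55 (SE, edgeR adjusted p = 0.445). Their FPKM values were lower in both eWAT libraries: Rps7 was at 133, 116, 59.6 and 51.7 FPKM, with a log2 change of -1.15. Rpl34 (0.42 in counts) had -1.06 in FPKM and Rpl11 (0.32 in counts) -0.87, while Rpl5 and Rpl10 were at 0.01 and -0.01 in counts and -0.69 and -0.65 in FPKM. The count changes of these genes lie within about 1 SE of 0, so counts give them no clear direction.

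The paralogs Rpl7l1, Rpl22l1 and Rps27l pass the name rule and are members. Rps27l, known as a target of p53, had 53.5, 43.6, 45.6 and 40.9 CPM and 200, 172, 183 and 198 FPKM. The WT eWAT library lay between the spleen libraries in both measures, and the tissue effect did not pass by edgeR (above) or limma (0.04 on the log2(FPKM + 1) scale, adjusted p = 0.848). Its partner in name Rps27 had 19.8, 19.4, 12.3 and 13.4 FPKM, lower in both eWAT libraries, with few reads behind it. Cufflinks placed 99.9, 99.9, 99.8 and 99.8% of this FPKM on a 575-base transcript listed as non-coding, not on the coding one. In counts Rps27 did not pass (-0.83 ± 0.53, SE, edgeR adjusted p = 0.189). Rpl22l1 had 56.2, 49.3, 31.9 and 21.0 CPM (-0.99 ± 0.23, SE, edgeR adjusted p = 0.00304), and Rpl22, of which it is the paralog, had 92.1, 74.0, 38.3 and 26.7 CPM (-1.35 ± 0.22, SE, edgeR adjusted p = 0.000318). Rpl7l1 is described with the genotype comparison.

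Both subunits were lower in eWAT, with no test of the difference between them since members are not replicates. By edgeR 27 of 43 large and 21 of 29 small subunit members fell. With a mean of 200 or more reads these were 24 of 25 and 21 of 22. The median log2 ratio of eWAT over spleen from TMM-scaled counts was -0.95 (large) and -1.10 (small) in WT and -0.94 and -1.04 in 2KR. In FPKM it was -1.05 and -1.11 in WT but -0.89 and -0.86 in 2KR. The difference between the subunits in the mean over genotypes was 0.13 in counts and 0.04 in FPKM, and it changed sign between genotypes in FPKM. Summed reads of large over small subunit genes were 1.02, 1.06, 1.10 and 1.09, and summed FPKM 1.25, 1.26, 1.33 and 1.28. Both eWAT libraries were above both spleen libraries in these ratios, which were not tested.

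For some members the deposited transcripts changed unequally. These are Cufflinks estimates without a test. The 403-base transcript of Rpl34 was at 125, 97.1, 38.9 and 33.7 FPKM, and its 595-base transcript at 27.8, 23.6, 30.8 and 26.7 FPKM, so the longer form made up 18.1, 19.5, 44.2 and 44.2% of the gene. The 285-base transcript of Rpl38 made up 59.2, 56.6, 44.4 and 49.0%. For Rpl31 the 1253-base form took 44.0 and 37.0% in spleen and 100% in both eWAT libraries. That form itself was at 10.8, 6.64, 10.7 and 9.44 FPKM, while the 1039-base form was at 13.7 and 11.3 FPKM in spleen and near 0 in eWAT. Few reads were counted for these genes: 61, 52, 55 and 28 for Rpl31 and 31, 32, 35 and 28 for Rpl34.

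The median log2 ratio of eWAT over spleen over all members was -0.98 in WT and -0.99 in 2KR from counts, and -1.07 and -0.88 from FPKM. Among tested genes with 200 or more reads it was -0.34 and -0.50 in counts and -0.28 and -0.22 in FPKM.

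The second comparison asks what the PPARg-2KR mutation changes. An effect common to both tissues was called for 0 of 72 members by edgeR with tissue as a further term. It was called for 0.0667% of 16488 genes as lower in 2KR and for 0% as higher. At an unadjusted p under 0.05 edgeR gave 8 of 72 members, all of them lower in 2KR, against 3.43% of all genes lower and 1.29% higher at that threshold, and DESeq2 and limma called 0 after adjustment. They include Rpl32 and Rplp1 (log2 change of -0.51 each), Rps26 (-0.45) and Rps19 (-0.41).

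Within a tissue there was 1 library a group, so ratios are given without a test and their intervals cover counting error only. In spleen the members' median log2 ratio of 2KR over WT was -0.27, and of the 47 members with 200 or more reads 47 were below 0, against 54.3% of the 8140 genes with that many reads. In eWAT the median was -0.28, and 45 of 47 were below 0, against 69.1%. The eWAT value depends on scaling. Total-count scaling moved the median of all tested genes from 0.02 to 0.28 there. By total counts the median of all members was -0.03, and in FPKM -0.12. Of the 47 with 200 or more reads, 34 and 36 were below 0, where the 8140 genes had a median of 0.07 by either measure. In spleen the median of all members was -0.24 by total counts and -0.29 in FPKM. There 47 and 46 of the 47 were below 0, where the 8140 genes had a median of 0.00 by either measure. The share of the 8140 genes below 0 was computed under TMM only. The median of the 47 members with 200 or more reads minus that of the 8140 genes was -0.19 in eWAT under TMM. Total counts gave the same value, and in spleen both scalings gave -0.27. This match is no check, because changing the scaling moves every gene's log2 ratio by nearly the same amount. In FPKM the difference was -0.19 in eWAT and -0.28 in spleen. With all members in place of the 47, it was -0.10 in eWAT under TMM and -0.19 in FPKM. In spleen these values were -0.25 and -0.29.

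**Figure D4:**
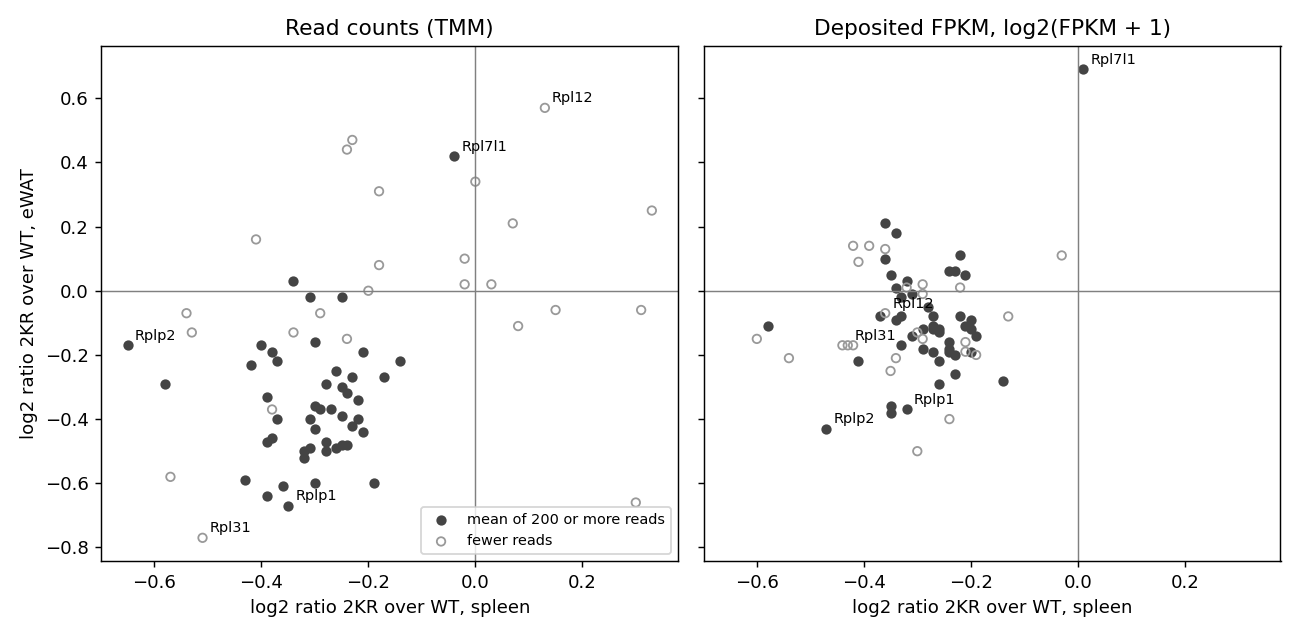
log2 ratio of 2KR over WT in eWAT (vertical) against spleen (horizontal) for the 72 members, from TMM-scaled counts on the left and from deposited FPKM on the right; filled points have a mean of 200 or more reads. Most filled points lie below and to the left of 0, and Rpl7l1 is above 0 in eWAT in both panels (0.42 and 0.69).

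With TMM scaling the exact binomial interval (95%) of the ratio lay below 0 for 47 members in spleen and 38 in eWAT. Among the 47 members with 200 or more reads it did so for 44 in spleen, against 31.2% of the 8140 genes, and for 36 in eWAT, against 50.7%. By total counts these were 43 in spleen, against 26.1%, and 18 in eWAT, against 21.9%. It lay above 0 for 1 in spleen, Rpl10, and for 2 in eWAT, Rpl37 and Rpl7l1. In spleen the lowest ratios were those of Rplp2 (-0.65, interval -0.88 to -0.43), Rps26 (-0.58, -0.74 to -0.42), Rpl38 (-0.57, -0.94 to -0.23) and Rpl37a (-0.54, -0.84 to -0.25). In eWAT they were those of Rpl31 (-0.77, -1.52 to -0.12), Rplp1 (-0.67, -0.79 to -0.56), Rps16 (-0.66, -1.51 to 0.09) and Rpl32 (-0.64, -0.75 to -0.53). Rplp1 and Rpl32 rest on at least 926 reads a library, whereas Rpl31 and Rps16 rest on 22 to 61. The highest ratios in eWAT were those of Rpl12 (0.57, 0.00 to 1.19), Rpl37 (0.47, 0.01 to 0.96), Rpl11 (0.44, -0.32 to 1.27) and Rpl7l1 (0.42, 0.26 to 0.59). In spleen they were those of Rpl24 (0.33, -0.27 to 0.98), Rpl10 (0.31, 0.01 to 0.62), Rps16 (0.30, -0.49 to 1.17) and Rps7 (0.15, -0.50 to 0.83). Of these highest ones only Rpl7l1 has a mean of 200 or more reads.

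Rpl7l1, a paralog of Rpl7, had 1686, 2019, 571 and 682 reads, or 136, 132, 52.7 and 70.8 CPM. Its FPKM was 52.6, 53.0, 21.3 and 35.1. The spleen libraries were alike (-0.04, interval -0.13 to 0.05), and in eWAT 2KR was above WT by every scaling used: 0.42 by TMM, 0.68 by total counts and 0.69 on the log2(FPKM + 1) scale. It was lower in eWAT by edgeR (-1.12 ± 0.20, SE, adjusted p = 0.000625), but did not pass in FPKM (limma adjusted p = 0.0630). The difference between the tissues was not tested, with 1 library a group.

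Other genes of ribosome production were taken from lists and are given for the tissue effect by edgeR. The background for these counts is 23.2% lower over all genes tested and 42.5% lower, with a median of -0.41, over genes with 200 or more reads. Of 45 ribosome biogenesis genes 30 were lower in eWAT and 0 higher, with a median log2 change of -0.64. Nop2, a methyltransferase of ribosomal RNA, had 123, 103, 44.3 and 37.5 CPM (-1.47 ± 0.20, SE), Nop10 of the box H/ACA particle 205, 165, 72.5 and 64.6 CPM (-1.43 ± 0.20, SE), and Rrp1b 99.1, 88.7, 32.3 and 30.0 CPM (-1.59 ± 0.19, SE). Their changes (edgeR adjusted p at most 9.2e-05) lie among or below those of the members that fell most. Of 25 subunits and factors of RNA polymerases I and III 16 were lower and 0 higher (median -0.58), and of 30 initiation factors 19 were lower and 1, Eif1, was higher (median -0.65). Of 21 elongation factors and other messages with a pyrimidine tract 18 were lower and 0 higher (median -0.83), among them Eef1g with 78.3, 71.7, 35.1 and 30.2 CPM (-1.19 ± 0.20, SE).

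Of 76 mitochondrial ribosomal protein genes 67 were lower and 0 higher, with a median of -0.93. Their ratio of counts to FPKM had a median of 0.831, against 0.274 for the cytosolic members. Regulators of growth and ribosome production went in both directions. Of 25, 8 were lower and 3 higher (median -0.20), and 14 did not pass. The largest change was that of Mycn, higher on few reads (2, 2, 13 and 40 reads, 4.11 ± 0.95, SE, edgeR adjusted p = 0.00307). Mxd1, an antagonist of MYC, was at 54.8, 71.5, 220 and 200 CPM (1.74 ± 0.21, SE, edgeR adjusted p = 2.16e-05). Lower were Max (-1.33 ± 0.19, SE), Akt1s1 (-1.29 ± 0.35, SE) and Myc, at 234, 195, 141 and 84.8 CPM (-0.92 ± 0.24, SE, edgeR adjusted p = 0.00557). Their relation to the members was not tested. The list of 8 Treg and T cell genes had 4 lower and 1, Ctla4, higher (median -0.57). Lck, the kinase of the T cell receptor, had 2141, 1820, 985 and 686 CPM (-1.24 ± 0.29, SE), and Cd3e of the receptor complex had 1387, 1161, 672 and 572 CPM (-1.03 ± 0.26, SE). Foxp3 had 1408, 1298, 1160 and 801 CPM and did not pass (-0.46 ± 0.27, SE, edgeR adjusted p = 0.162).

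The remaining lists overlap or border the members. Of 8 tested genes of the stalk, Rpsa, Gnb2l1 (the small subunit protein RACK1) and fusions of ribosomal protein with ubiquitin or a ubiquitin-like protein, 6 were lower and 0 higher (median -1.03). Of 6 tested genes named as ribosomal protein-like, 3 were lower and 2 higher (median -0.57). The higher ones were Rpl3l (1, 1, 13 and 15 reads) and Rps4y2 (16, 9, 42 and 25 reads), both outside the threshold of 20 reads. Of 21 other housekeeping genes with many pseudogenes, such as those of actin and tubulin, 7 were lower and 1, Actg1, higher (median -0.26), with a median ratio of counts to FPKM of 0.585.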

How the data were processed

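Read counts were deposited by the authors as unscaled whole numbers per gene symbol. The deposited readme, a general description by the sequencing facility, names poly-A selection, a TruSeq kit, 100 bp reads, bcl2fastq 1.8.4, and alignment by Tophat 2.1.0 to mouse build mm9 (4 mismatches; at most 10 hits a read); the submitters' processing notes also list mm8. No source here names the counting tool, its use of strand or what became of reads with several hits. FPKM values are the authors' own, computed in Cufflinks 2.0.2 per the readme, as are the transcript lengths.

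Tissue and common genotype effects were tested on counts with edgeR 4.0.16 (R 4.3.3), fitted on all genes passing its filter, with TMM scaling, Benjamini-Hochberg adjustment and a threshold of 0.05. Alternatives used DESeq2 1.42.0 and limma 3.58.1. Ratios used a prior count of 2. Pseudogene copies were found with blastn 2.17.0 on 1 transcript per gene, preferring those in the CCDS set with the deposited length. Separate animals are not stated, so each p-value reflects the spread among these 4 libraries, which may be technical. Members and lists were chosen with earlier results of these data known. Named were 6 anchor genes (Rpl3, Rps3, Rplp0, Rplp1, Rplp2, Rpsa), the paralogs, those at the ends of the tissue and genotype ratios, of the read counts and of the ratio of counts to FPKM, those next to the read threshold, and up to 4 of each other list. Rpl41, Rpl13, Rpl14, Rpl18, Rps6, Rpl35a, Myc, Foxp3 and the symbols outside the threshold were named after their values were seen. Some genes within the rule are not reported here.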

Additional observations from a re-analysis of the deposited data

How the results depend on the processing

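The count of members lower in eWAT was 48, beside 3832 of 16488 genes, and kept within 1.5 times under the alternatives given here. It was 45 by total counts (2934 of 16488 genes lower) and 48 by DESeq2 (4190 of 20142). With genotype as a block (pairing the tissues within a genotype) it was 48 (4007 of 16488). In FPKM limma gave 65 to 70, beside 2077 of 22034 and 2988 of 15084 genes at these ends. Fits without 1 library leave 1 library in a tissue, so their counts are not given. No member was called higher in eWAT, and none for the common genotype effect, under any alternative run; leaving out a library was not run for genotype, because no residual degree of freedom would remain. The median log2 ratio of eWAT over spleen, -1.03 as a mean of both genotypes, was -0.86 by total counts, -1.16 with DESeq2 size factors, -0.96 in FPKM, -1.13 for members with 100 or more reads in each library and -1.14 for those with a mean of 200 or more, an alternative chosen after seeing the data. In eWAT the median of 2KR over WT, -0.28, was -0.03, -0.31, -0.12, -0.37 and -0.37 under the same 5 settings, and in spleen, -0.27, it was -0.24, -0.21, -0.29, -0.28 and -0.30. The difference of large minus small subunit medians, 0.13, was 0.04 in FPKM. Leaving the ribosomal protein genes out of the scaling factors, or the paralogs out of the members, moved no median by more than 0.01. Few reads limit the count-based ratios of members with near-identical copies, 15 of which have an identical pseudogene.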
